A study of Mus musculus with 8 samples.

Results

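The 10 genes described here are the lipid-handling genes that answer to the liver X receptors (LXRs) together with Cd5l, a protein that macrophages secrete. They were taken from the count table by gene name as Cd5l, Apoe, Abca1, Abcg1, Nr1h3, Mylip, Srebf1, Scd1, Scd2 and Lpcat3, which are 10 of the 54532 genes listed, and all 10 passed the filter that left 12234 genes for testing. The list was drawn up with results of these libraries known, among them the level of Cd5l and Scd1 after IL-4 and of Scd2 after LPS, so the genes were in part chosen by their changes in IL-4 against control and in LPS against control, and both contrasts are given for them as a description, without a p-value and with nothing read from the calls counted there. Tests are given for the cells that received both agents, compared with LPS alone (called IL-4 before LPS below) and with IL-4 alone (called LPS after IL-4), and for the difference between the LPS responses. Their p-values may not be independent of the choice of genes either, since these contrasts use libraries whose results were known.

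The cells were bone marrow-derived macrophages (BMDMs), which are grown from mouse bone marrow in culture, and the study asked how a prior exposure to IL-4 changes their later response to LPS. Total RNA was the starting material, and strain and age of the mice were not stated. There were 4 groups of 2 libraries each. Control cells received neither agent. LPS cells received 100 ng/ml lipopolysaccharide, a component of bacterial outer membranes that activates Toll-like receptor signalling, for 4 h. IL-4 cells received 20 ng/ml of the cytokine interleukin-4 for 24 h. In the group called IL-4 then LPS, the same 24 h with 20 ng/ml IL-4 ended with a wash, and 4 h with 100 ng/ml LPS followed. The time at which the IL-4 cells were collected relative to the wash was not given. The libraries carry the numbers 1 and 3 in every group, and nothing in the labels says how many animals or cultures the libraries of a group came from; the p-values measure the spread between these libraries.

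Liver X receptors are nuclear receptors that bind oxysterols, the oxidised forms of cholesterol, and act as heterodimers with the retinoid X receptor on DNA elements built of paired half-sites. In macrophages they switch on genes that export cholesterol, limit its uptake and adjust the fatty acids of membranes. Cd5l, also called AIM or Spα, is a secreted scavenger-receptor cysteine-rich protein of tissue macrophages that is known as an LXR target and protects macrophages from apoptosis.

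Promoter windows of 250 bases before the annotated start were looked up for the members in the RefSeq table for GRCm38.p6 (mm10), and 7 of the 10 had one: Cd5l, Apoe, Abca1, Nr1h3, Mylip, Srebf1 and Lpcat3. Abcg1, Scd1 and Scd2 were not matched. The 3 windows shown are those that hold letters read from the Abca1 or the Cd5l window. They were picked with the levels of Abca1, Srebf1 and Cd5l under the 2 agents known. The first letters searched were GGTTACTNNCGGTCA, a form of the paired half-site that LXR heterodimers bind (DR4), on both strands, chosen after the Abca1 window had been read. The second, TGCTGANNTCAGCA, are the longest stretch of the Cd5l window that equals its own reverse complement apart from the 2 middle bases, and have the form of the palindrome that Maf factors bind; they read the same on both strands. Each sequence runs 5′ to 3′ on the gene's own strand and ends at the base before the start, and capitals mark the matched element. The Abca1 window is chr4:53159896-53160145 on the minus strand, the Srebf1 window chr11:60210472-60210721 on the minus strand, and the Cd5l window chr3:87357631-87357880 on the plus strand.
Abca1: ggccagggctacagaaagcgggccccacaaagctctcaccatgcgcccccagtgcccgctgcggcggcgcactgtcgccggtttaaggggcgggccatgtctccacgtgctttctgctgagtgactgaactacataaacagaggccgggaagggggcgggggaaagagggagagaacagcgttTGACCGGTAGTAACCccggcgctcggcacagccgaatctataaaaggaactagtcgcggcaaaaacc
Srebf1: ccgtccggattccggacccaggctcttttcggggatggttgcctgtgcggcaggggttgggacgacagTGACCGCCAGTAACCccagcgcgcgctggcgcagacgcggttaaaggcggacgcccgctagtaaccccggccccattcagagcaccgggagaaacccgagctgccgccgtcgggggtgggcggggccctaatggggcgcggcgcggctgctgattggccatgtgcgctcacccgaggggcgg
Cd5l: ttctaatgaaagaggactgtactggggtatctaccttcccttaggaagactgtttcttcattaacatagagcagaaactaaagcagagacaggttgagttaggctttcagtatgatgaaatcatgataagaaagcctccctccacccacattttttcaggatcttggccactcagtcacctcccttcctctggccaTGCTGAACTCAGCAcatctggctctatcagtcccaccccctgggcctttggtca
No annotated exon overlapped any of these windows. In Abca1 the element lay 67 to 53 bases before the start and in Srebf1 182 to 168 bases before it, and on the strand opposite to the gene it read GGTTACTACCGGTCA in Abca1 and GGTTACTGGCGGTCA in Srebf1. The Srebf1 window lies within the span of the gene in the count table's annotation (chromosome 11, 60199089 to 60222581), so it belongs to one of several starts of that gene. Of 32851 promoter windows of the same length, 3 (0.00913%) held GGTTACTNNCGGTCA. In Cd5l the Maf palindrome, TGCTGAACTCAGCA, lay 54 to 41 bases before the start, and 2 of the 32851 windows (0.00609%) held those letters. Both sets of letters were taken from windows of members, so the low shares follow from that choice and are no sign of function. The consensus DR4 element, a pair of AGGTCA half-sites spaced by 4 bases with up to 2 mismatches on either strand, was in 843 windows (2.57%), and the sterol regulatory element TCACNCCAC, on either strand, was in 346 (1.05%); neither was in the window of a member. A match of letters is a description of the sequence and does not show binding in these cells.

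The libraries held between 7924932 and 9431852 counted reads. Levels are given in CPM, reads of the gene set against the library's total, scaled between libraries by TMM, whose factors ran from 1.17 to 1.25 in the 4 libraries without LPS and from 0.786 to 0.866 in the 4 with it. Scaling to the library total alone put the median of all genes at -0.62 on the log2 scale in LPS against control, where TMM gave -0.01, and at -0.56 for LPS after IL-4, where TMM gave -0.04, and directions below that depend on it are named. Mitochondrial genes took 1.07 to 1.61% of reads. Libraries numbered 1 had 2936 to 4465 reads of Xist and none of the Y-linked genes counted, and libraries numbered 3 had 0 reads of Xist and 1246 to 1546 of the Y-linked genes, so the number goes with the sex of the cells and the 2 libraries of a group come from cells of different sex. For the members in IL-4 before LPS, a call that a fit with that number as a term changed is given beside the result. Other calls are from the fit without this term unless it is named, and it changed several counts of the gene lists below. All 8 macrophage markers listed (Adgre1, Csf1r, Cd68, Itgam, Fcgr1, Lyz2, Cd14, Mrc1) passed the filter, with summed levels of 18239 to 24957 CPM in control, 20674 to 23088 in LPS, 12489 to 17283 in IL-4 and 12983 to 18075 CPM in IL-4 then LPS libraries. Summed markers of dendritic cells reached at most 13.6 CPM, of neutrophils 7.46, of mast cells, basophils and eosinophils 18.2, of stromal cells 46.1 and of erythroid cells 0.276 CPM. Of the lymphocyte list, the T cell gene Cd3e was at 0 in every library, although Il7r had 155 to 547 CPM and Lck up to 21.7 CPM. Of the adipocyte list, Fabp4, which macrophages also express, passed the filter, while Plin1 and Lep were at 0. The summed dendritic cell and stromal lists were higher in the libraries with LPS (7.05 to 13.6 and 17.1 to 46.1 CPM) than in those without (0.952 to 1.48 and 3.66 to 4.67 CPM), and their part in the LPS results was not tested. Of the stromal list Pdgfrb alone reached 41.3 CPM, while the collagen genes Col1a1, Col1a2 and Col3a1 reached at most 2.98 CPM. In bulk RNA, fewer cells of a type and less RNA per cell cannot be told apart.

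Cd5l (ENSMUSG00000015854; mm10 chromosome 3, 87357881 to 87371073, plus strand) had its highest levels in the libraries without IL-4 and its lowest in those with it, whether or not LPS followed. Its level was 61.8 and 60.2 CPM in the control libraries numbered 1 and 3, 73.1 and 55.1 CPM in LPS, 16.2 and 15.6 CPM in IL-4, and 13.4 and 14.4 CPM in IL-4 then LPS. All 4 libraries without IL-4 lay above all 4 with it, and the LPS libraries lay on either side of the control libraries. With IL-4 before LPS, Cd5l fell by 2.20 on the log2 scale, with a standard error (SE) of 0.17, a level 4.60-fold lower (edgeR quasi-likelihood test, Benjamini-Hochberg adjusted p = 0.00346). Cd5l was put on the list with results of these libraries known, so this p-value may not be independent of the choice. In all 8 of the 12234 genes passed in that contrast, 6 higher and 2 lower, and Cd5l and the transcriptional repressor gene Bcl6, named after its values were seen, were the 2 that fell. The fall was a call in 7 of the 8 fits that left out 1 library (adjusted p = 0.0593 without IL-4 then LPS replicate 1) and was not a call when the 2 groups were fitted alone (adjusted p = 0.0677), with a log2 change between -2.39 and -1.98 in all of these. The summed macrophage markers were also lower in the 4 libraries with IL-4 than in the 4 without (12489 to 18075 against 18239 to 24957 CPM). Most of that sum was Lyz2, at 8017 to 19576 CPM over the libraries, so it does not show the markers moving together. The part of the markers in the result was not tested. The matching contrast without LPS, IL-4 against control, which shares no library with the tested one, gave -1.94 ± 0.17 (log2, SE) and is a description. LPS itself gave 0.07 ± 0.16 without prior IL-4, a value that turned to -0.53 with scaling to the library total and to -0.19 with upper-quartile scaling. After IL-4 it gave -0.19 ± 0.17 (95% interval -0.59 to 0.21, adjusted p = 0.411), and with scaling to the library total -0.72, which passed the test (adjusted p = 0.0145).

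**Figure D1:**
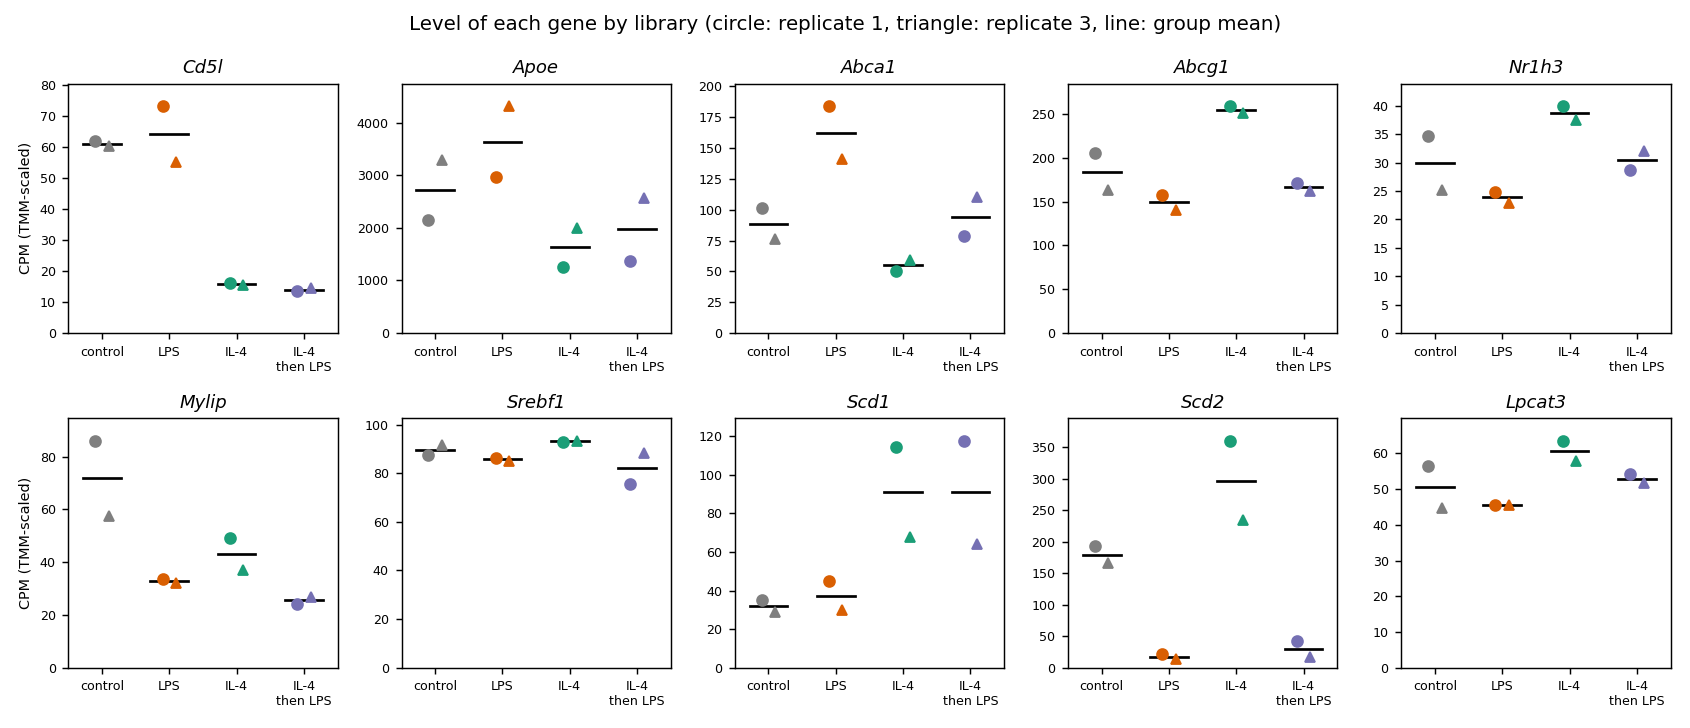
Level of each of the 10 genes in CPM (linear axis from 0) in every library of the 4 groups; circles are libraries numbered 1, triangles libraries numbered 3, and black lines the group means. Cd5l sits between 13.4 and 16.2 CPM in the 4 libraries with IL-4 and between 55.1 and 73.1 CPM in the others, while Scd2 is between 13.5 and 42.7 CPM in the 4 libraries with LPS and between 166 and 359 CPM in the others.

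Apoe, the apolipoprotein that carries cholesterol away from macrophages and on to lipoprotein receptors (chromosome 7, 19696109 to 19699188, minus strand), was the most abundant member per kilobase of exon in every group. Its level was 2145 and 3282 CPM in control, 2969 and 4313 in LPS, 1264 and 1998 in IL-4, and 1376 and 2577 CPM in IL-4 then LPS. The library numbered 3 was the higher one in every group, and the IL-4 libraries lay below both control libraries. In IL-4 then LPS against LPS alone the value was -0.88 ± 0.38 (log2, SE; 95% interval -1.77 to 0.00; adjusted p = 0.587), and both IL-4 then LPS libraries lay below both LPS libraries. With the library number as a term, Apoe passed the test there, at -0.92 ± 0.12 (edgeR adjusted p = 0.0078). The description in IL-4 against control was -0.73 ± 0.38. LPS after IL-4 gave 0.28 ± 0.38 (adjusted p = 0.597), which turned to -0.25 with scaling to the library total, and LPS against control gave 0.42 ± 0.38, which turned to -0.18.

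The transporters Abca1 and Abcg1 move cholesterol out of macrophages, Abca1 onto lipid-poor apolipoprotein A-I and Abcg1 onto mature high-density lipoprotein. Abca1 lies on chromosome 4 (53030787 to 53159895, minus strand) and Abcg1 on chromosome 17 (31057698 to 31115777, plus strand), and they answered LPS in opposite directions. Abca1 stood at 101.3 and 76.0 CPM in control, 184 and 141 in LPS, 49.99 and 59.6 in IL-4, and 78.6 and 110.3 CPM in IL-4 then LPS. Abcg1 stood at 205 and 163 CPM in control, 158 and 141 in LPS, 259 and 251 in IL-4, and 171 and 162 CPM in IL-4 then LPS. The IL-4 libraries were thus the lowest for Abca1 and the highest for Abcg1. For LPS after IL-4, Abca1 rose by 0.79 ± 0.23 (log2, SE; 1.73-fold; edgeR adjusted p = 0.0282). In the same contrast Abcg1 fell by 0.62 ± 0.15, where the 0.15 is the SE (log2; 1.53-fold lower; edgeR adjusted p = 0.0139). Scaling decided the call for Abca1 and not its direction: it was 0.26 (adjusted p = 0.352) with the library total and 0.54 (adjusted p = 0.0926) with upper-quartile scaling, while Abcg1 passed under all 4 scalings tried, between -1.14 and -0.59. The call for Abca1 was lost without IL-4 replicate 1 (adjusted p = 0.142), IL-4 replicate 3 (0.0528) or IL-4 then LPS replicate 3 (0.175), and that for Abcg1 without either library of either group compared (adjusted p between 0.0519 and 0.0835).

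The ratio of Abca1 to Abcg1 reads within a library does not depend on scaling. It was 0.494 and 0.467 in control, 1.16 and 1.003 in LPS, 0.193 and 0.238 in IL-4, and 0.461 and 0.683 in IL-4 then LPS. Each library with LPS had a higher ratio than both libraries of its comparison group without LPS, with and without prior IL-4. Against LPS alone, IL-4 then LPS gave -0.78 ± 0.23 for Abca1 (95% interval -1.31 to -0.25, adjusted p = 0.399) and 0.15 ± 0.15 for Abcg1 (-0.20 to 0.50, adjusted p = 0.832), and neither passed the test. The descriptions in IL-4 against control were -0.69 ± 0.23 and 0.47 ± 0.15, and in LPS against control 0.87 ± 0.23 and -0.30 ± 0.15.

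**Figure D2:**
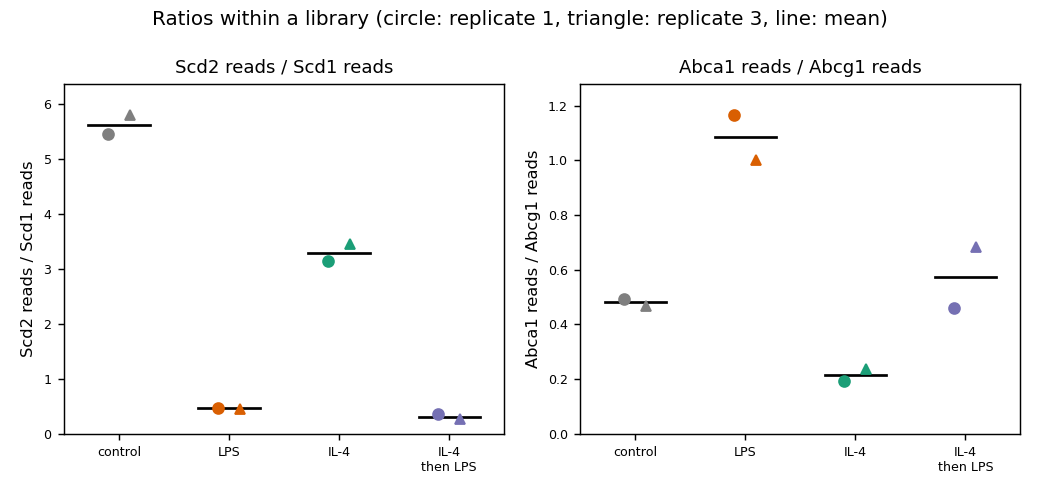
Ratio of reads of Scd2 to Scd1 (left) and of Abca1 to Abcg1 (right) within each library, linear axes from 0; circles are libraries numbered 1, triangles libraries numbered 3, and lines the means of 2 libraries. Scd2 reads exceed Scd1 reads in the 4 libraries without LPS (3.14 to 5.79) and are fewer in the 4 with LPS (0.264 to 0.477), and Abca1 over Abcg1 is higher in each LPS group than in its group without LPS.

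Nr1h3, which encodes LXRα itself (chromosome 2, 91184061 to 91202834, minus strand), varied 1.74-fold over the 8 libraries. Its level was 34.6 and 25.1 CPM in control, 24.8 and 22.9 in LPS, 39.9 and 37.5 in IL-4, and 28.7 and 32.0 CPM in IL-4 then LPS. The 2 IL-4 libraries were the highest of the 8 and the 2 LPS libraries the lowest. Neither tested contrast passed: IL-4 then LPS gave 0.35 ± 0.19 against LPS alone (adjusted p = 0.661) and -0.35 ± 0.18 against IL-4 alone (95% interval -0.77 to 0.07, adjusted p = 0.165). The second passed with scaling to the library total (-0.87, adjusted p = 0.00786) and with upper-quartile scaling (-0.60, adjusted p = 0.0336). IL-4 against control was 0.37 ± 0.18 and LPS against control -0.33 ± 0.18, as descriptions. Of its exon bases, 34 (1.35%) are shared with Gm13783 on the same strand.

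Mylip, also called IDOL, is the ubiquitin ligase through which LXR activity marks lipoprotein receptors for breakdown (chromosome 13, 45389742 to 45412022, plus strand). Its level was 85.8 and 57.6 CPM in control, 33.6 and 32.2 in LPS, 49.0 and 36.9 in IL-4, and 24.1 and 27.0 CPM in IL-4 then LPS. Every library with LPS lay below every library without it. For LPS after IL-4, Mylip fell by 0.75 ± 0.22, the SE being the second value (log2; 1.68-fold lower; edgeR adjusted p = 0.0314), and it passed under all 4 scalings (-1.28 to -0.73). The call was lost without IL-4 replicate 1 (adjusted p = 0.173), IL-4 then LPS replicate 1 (0.132) or IL-4 then LPS replicate 3 (0.0840). Against LPS alone the value was -0.36 ± 0.23 (adjusted p = 0.723), and the descriptions were -1.12 ± 0.22 in LPS against control and -0.74 ± 0.22 in IL-4 against control.

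Srebf1 encodes SREBP-1, the transcription factor of fatty acid synthesis whose 1c form is an LXR target, and it was the member that varied least over the 8 libraries. Its level ran from 75.7 CPM in IL-4 then LPS replicate 1 to 93.2 CPM in IL-4 replicate 3, a 1.23-fold range. The 2 control libraries had 87.5 and 91.4 CPM, LPS 86.4 and 85.1, IL-4 92.9 and 93.2, and IL-4 then LPS 75.7 and 88.2 CPM. The counts are per gene, so transcripts from its several starts cannot be told apart, and 109 of its exon bases (1.93%) are shared with Rai1 on the other strand. Against LPS alone, IL-4 then LPS gave -0.06 ± 0.12 (95% interval -0.35 to 0.22, adjusted p = 0.928), and against IL-4 alone -0.18 ± 0.12 (-0.47 to 0.10, adjusted p = 0.274). The latter passed with scaling to the library total (-0.71, adjusted p = 0.00187) and with upper-quartile scaling (-0.43, adjusted p = 0.0200). Whether the element printed above for both Abca1 and Srebf1 had a part in the result of either gene was not tested.

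Scd1 and Scd2 are stearoyl-CoA desaturases, which put the double bond into newly made saturated fatty acids. The level of Scd1 after IL-4 and of Scd2 after LPS was known when they were chosen. A difference between the 2 genes in the agent they followed is thus in part built in, and it was not tested. Scd2 was also higher in both IL-4 libraries than in both control libraries. Scd1 was at 35.4 and 28.7 CPM in control, 44.9 and 29.8 in LPS, 114.5 and 67.8 in IL-4, and 117.6 and 64.4 CPM in IL-4 then LPS. Scd2 was at 193 and 166 CPM in control, 21.4 and 13.5 in LPS, 359 and 234 in IL-4, and 42.7 and 17.0 CPM in IL-4 then LPS. For Scd1 the 4 libraries with IL-4 lay above the 4 without, for Scd2 the 4 libraries with LPS lay below the 4 without, and the library numbered 1 was the higher of its group in all 4 groups for both genes. Scd2 fell by 3.32 on the log2 scale for LPS after IL-4 (SE 0.44; 9.96-fold lower; edgeR adjusted p = 0.000794), a call in all 8 fits that left out 1 library, with changes between -4.12 and -2.79. The description in LPS against control was -3.36 ± 0.45. For Scd1 the same contrasts gave a log2 change of -0.0048 after IL-4 (SE 0.35; 95% interval -0.81 to 0.80; adjusted p = 0.993) and 0.22 ± 0.36 without it, and the sign of both depended on the scaling.

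Against LPS alone, IL-4 then LPS gave 1.28 ± 0.36 for Scd1 (95% interval 0.44 to 2.12, 2.43-fold), and with an adjusted p of 0.369 this did not pass the test. With the library number as a term, Scd1 passed it, at 1.26 ± 0.15 (edgeR adjusted p = 0.0049). The matching description in IL-4 against control was 1.51 ± 0.36. For Scd2 the values were 0.77 ± 0.44 (adjusted p = 0.685) and 0.72 ± 0.40, and the first came to -0.04 without IL-4 then LPS replicate 1, whose 42.7 CPM was the highest of the 4 libraries with LPS. Within a library, Scd2 reads over Scd1 reads came to 5.45 and 5.79 in control, 0.477 and 0.454 in LPS, 3.14 and 3.45 in IL-4, and 0.364 and 0.264 in IL-4 then LPS. Both genes lie on chromosome 19, Scd2 at 44293676 to 44306864 on the plus strand and Scd1 at 44394451 to 44407709 on the minus strand. Their annotated transcripts share 145 stretches of 50 bases, 2.97% of those of Scd1 and 2.66% of those of Scd2, so reads from these stretches could belong to either. Of their neighbours in the family, Scd3 had 0 reads in every library and Scd4 had 0 to 5 reads.

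Lpcat3 (chromosome 6, 124663027 to 124704418, plus strand) encodes the enzyme that places polyunsaturated chains into membrane phospholipids. It had 56.4 and 44.7 CPM in control, 45.5 and 45.6 in LPS, 63.5 and 57.7 in IL-4, and 54.3 and 51.6 CPM in IL-4 then LPS. The IL-4 libraries were the highest, and the LPS and the IL-4 then LPS libraries all lay within the range of the control libraries. No tested contrast passed: 0.22 ± 0.15 against LPS alone (95% interval -0.12 to 0.56, adjusted p = 0.747) and -0.20 ± 0.15 against IL-4 alone (-0.53 to 0.14, adjusted p = 0.326). The second passed with scaling to the library total (-0.72, adjusted p = 0.00881) and with upper-quartile scaling (-0.44, adjusted p = 0.0471). Of the Lpcat3 exon bases, 334 (10.2%) are shared with Emg1 on the opposite strand, and since no strand setting is given for the counting, reads of the 2 genes there cannot be told apart.

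The order of the members was compared per kilobase of exon, as mean CPM per kb. Apoe led in all 4 groups with 1269 in control, 1703 in LPS, 763 in IL-4 and 924 CPM per kb in IL-4 then LPS. Abcg1 came next in all 4, at 45.2, 36.7, 62.6 and 40.8 CPM per kb. Below them the order changed with the agent. Cd5l was 4th in control (30.0 ± 0.54 CPM per kb, SD, n = 2) and 3rd in LPS (31.5 ± 6.23), but 9th in IL-4 (7.82 ± 0.23) and in IL-4 then LPS (6.83 ± 0.34). Scd1 was last of the 10 in control (6.63 ± 0.98) and 4th and 3rd in the groups with IL-4 (18.9 ± 6.83 and 18.8 ± 7.78 CPM per kb). Scd2 was 3rd in control (32.9 ± 3.46) and in IL-4 (54.4 ± 16.3) and last in both groups with LPS (3.21 ± 1.02 and 5.48 ± 3.34 CPM per kb). Srebf1 and Lpcat3 were neighbours in the order of all 4 groups and differed by less than their spread in control (15.9 ± 0.49 against 15.5 ± 2.54 CPM per kb), while in IL-4 then LPS the values were 14.5 ± 1.57 against 16.2 ± 0.57 CPM per kb.

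For IL-4 before LPS, none of the 10 members rose and 1 (Cd5l) fell, where 0.049% of all tested genes rose and 0.0163% fell. An unadjusted edgeR p under 0.05 was found for 3 of the 10 members and for 1040 of the 12234 tested genes. The members were chosen with results of these libraries known, so a count above the share of all genes may follow from the choice. With the library number as a term, 1 member rose (Scd1) and 2 fell (Cd5l and Apoe), where 1.08% of all tested genes rose and 1.22% fell. The members' median was 0.04 on the log2 scale and that of all tested genes -0.03. Groups did not overlap for 4 members that were higher and 4 that were lower, where 16.6% and 19.8% of all genes did so in these directions. In IL-4 against control, which chose members and from which nothing is read, 0 were called higher and 1 lower (background 0.0572% and 0.00817%), and all 10 had groups that did not overlap, 6 higher and 4 lower (19.4% and 19.2% of all genes).

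More genes passed the test for LPS. For LPS after IL-4, 1 member rose (Abca1) and 3 fell (Abcg1, Mylip, Scd2), where 20.7% of all tested genes rose and 18.6% fell, so the 4 of 10 is close to the share among all genes. The members' median was -0.19 on the log2 scale against -0.04 over all genes, and groups did not overlap for 1 member that was higher and 7 that were lower (34.8% and 36.9% of all genes). With TMM 52.8% of all calls in this contrast were increases, against 22.5% with scaling to the library total and 36.0% with upper-quartile scaling. In LPS against control, given as a description, 1 member was called higher and 2 lower (21.8% and 18.6% of all genes), and the groups of 1 and 5 did not overlap (35.9% and 36.7%); the share of increases among all calls there was 53.9%, 21.2% and 36.6% under the same 3 scalings.

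**Figure D3:**
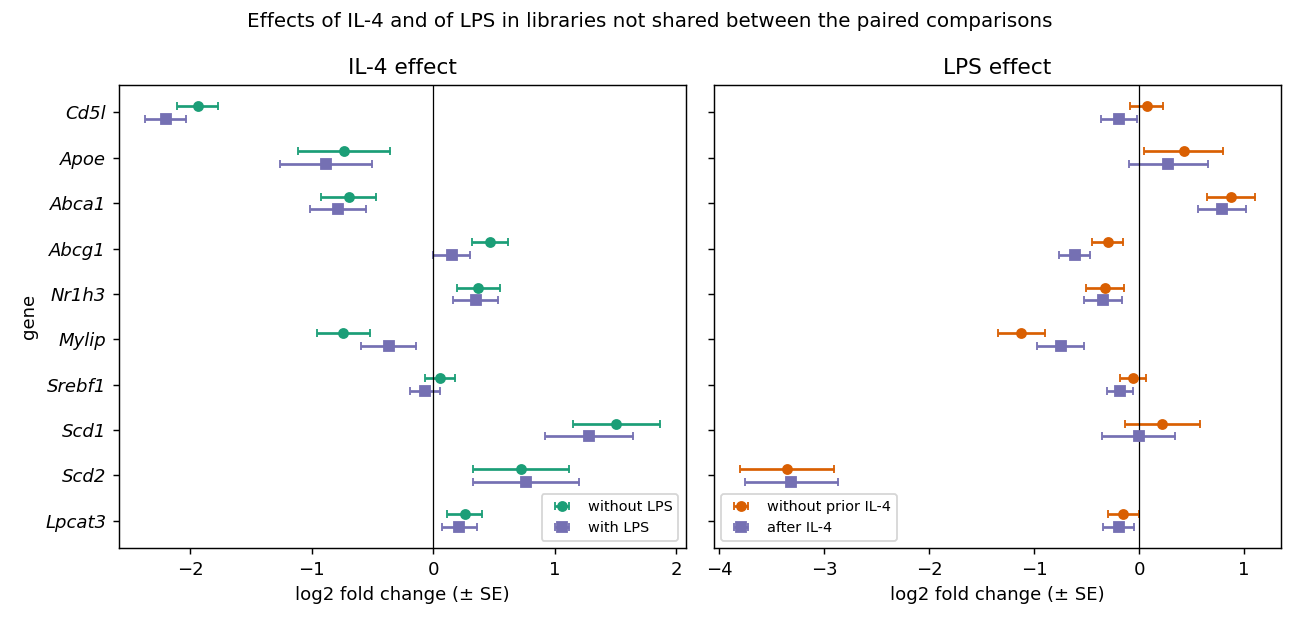
Log2 fold change of each member with its SE (bars) for IL-4 (left; circles without LPS, squares with LPS) and for LPS (right; circles without prior IL-4, squares after IL-4); the circles and squares of a panel share no library. Cd5l is at -1.94 and -2.20 on the left, the lowest there, and Scd2 at -3.36 and -3.32 on the right, the lowest there.

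Whether IL-4 changed the LPS response of a member was tested as the difference between the 2 LPS responses. No member passed, 0% of all tested genes rose and 0% fell, and none of the 10 had an unadjusted p under 0.05, which 322 of the 12234 genes had. Over the whole table DESeq2 called 3 genes higher and 1 lower, edgeR without the filter on low counts 16 higher and 37 lower, and edgeR with the library number as a term 0 higher and 1 lower; no member was among them. The differences were -0.26 for Cd5l (95% interval -0.81 to 0.28), -0.09 for Abca1 (-0.83 to 0.66), -0.32 for Abcg1 (-0.81 to 0.18) and 0.37 for Mylip (-0.35 to 1.103), all on the log2 scale. For Scd2 the difference was 0.04 with an interval from -1.31 to 1.39, the widest of the 10 intervals. The other members lay between -0.23 (Scd1, -1.39 to 0.94) and -0.02 (Nr1h3, -0.62 to 0.57).

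The genes whose level was most like that of Cd5l were taken as the 5 non-members with the highest Pearson correlation of log2 CPM over the 8 libraries, among 8122 genes with a mean of at least 10 CPM. They were Aif1 (r = 0.991), which encodes the macrophage actin-binding protein IBA1, the lipid flippase gene Atp8b4 (0.982), Selenop (0.980), which encodes the secreted selenium carrier, Tmem176b (0.962) and Fxyd2 (0.960), a regulator of the sodium pump. The 8 points are 4 groups of 2 that share their treatment, so r describes a pattern over groups. They were picked by their likeness to Cd5l in these same libraries, so lower levels with IL-4 follow from the choice. In each of the 5, the 4 libraries with IL-4 lay below the 4 without. Aif1, for example, had 16.9 and 15.8 CPM in control, 18.6 and 17.5 in LPS, 5.62 and 6.71 in IL-4, and 5.83 and 5.97 CPM in IL-4 then LPS. Selenop, at the highest level of the 5, had 1150 and 889.8 CPM in control, 1064 and 756 in LPS, 380 and 415 in IL-4, and 365 and 384 CPM in IL-4 then LPS. None of the 5 passed for IL-4 before LPS, where the log2 changes were -1.61 ± 0.20 for Aif1 (adjusted p = 0.0508), -0.63 ± 0.13 for Atp8b4 (0.195), -1.28 ± 0.21 for Selenop (0.129), -1.93 ± 0.29 for Tmem176b (0.112) and -0.96 ± 0.15 for Fxyd2 (0.129). With the library number as a term all 5 passed there, with adjusted p from 0.000704 (Tmem176b) to 0.0248 (Atp8b4). Since the choice of the 5 used these libraries, the p-values are no test of a response shared with Cd5l.

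**Figure D4:**
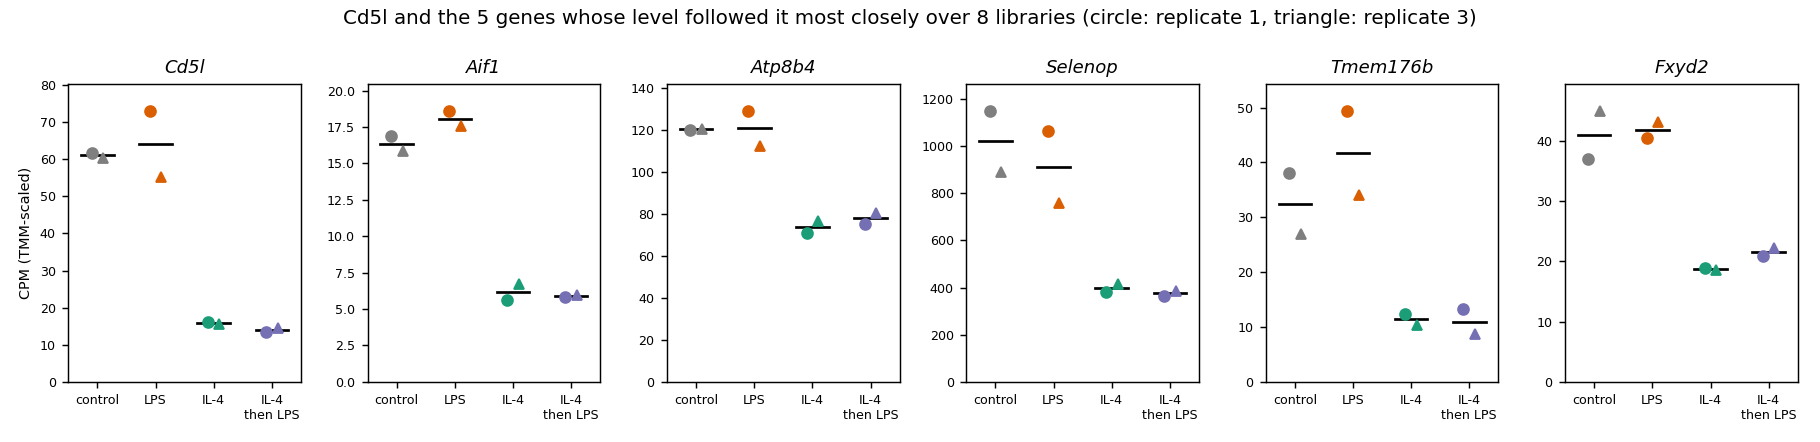
Level in CPM (linear axes from 0) of Cd5l and of the 5 genes most correlated with it, in every library; circles are libraries numbered 1, triangles libraries numbered 3, and lines the group means. In each panel the 4 libraries with IL-4 lie below the 4 without, for Aif1 at 5.62 to 6.71 against 15.8 to 18.6 CPM.

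The partners of the members in the pathway were counted in lists, which were drawn up with results of these data known. Of the 13 LXR partners and co-regulators, all tested, 2 rose and 4 fell for LPS after IL-4 (median -0.13 on the log2 scale, all genes -0.04). In that contrast 20.7% of all tested genes rose and 18.6% fell, and in LPS against control 21.8% and 18.6%; the counts of all 8 lists stand beside these shares, and none is called particular to its list. Among those that fell were Rxra, the retinoid X receptor that pairs with LXR, and Tbl1xr1, a subunit of co-repressor complexes. Rxra stood at 81.1 and 87.3 CPM in control, 12.7 and 13.96 in LPS, 63.6 and 82.4 in IL-4, and 11.4 and 18.3 CPM in IL-4 then LPS, and it fell by 2.29 ± 0.24 (SE; edgeR adjusted p = 0.000209). Tbl1xr1 fell by 0.87 on the log2 scale (adjusted p = 0.0029). Nr1h2, which encodes LXRβ, did not pass: its level was 78.8 to 149 CPM over the libraries and its change 0.36 ± 0.24 (adjusted p = 0.272), negative with scaling to the library total (-0.16). LPS against control gave the same counts, 2 higher and 4 lower.

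Of the 16 other LXR target genes, 10 were tested; 1 rose and 3 fell for LPS after IL-4 (median -0.36). Arl4c, a small GTPase of the ARF family, fell by 2.40 (adjusted p = 0.00598), the desaturase gene Fads1 by 1.83 (adjusted p = 0.00072), and Mertk, the receptor for apoptotic cells, rose by 1.98 on the log2 scale (adjusted p = 0.022). In LPS against control 0 of these 10 rose and 3 fell. Among 5 tested of 7 genes of oxysterol and LXR ligand enzymes, 1 rose and 1 fell after IL-4, and 1 rose and 2 fell without it. Ch25h, which makes the LXR ligand 25-hydroxycholesterol, had 460 reads in the IL-4 then LPS libraries and 2 in the IL-4 libraries. The ratio was 351 after TMM scaling, with a counting interval from 96.7 to 2908. In LPS and control it had 735 against 2 reads (scaled ratio 554, interval 153 to 4580). These intervals pool the libraries of a group and cover read counting only. They leave out the spread between libraries, which had 320 and 140 reads in IL-4 then LPS and 523 and 212 in LPS. Dhcr7, the last enzyme of cholesterol synthesis, fell by 2.13 (adjusted p = 0.000215).

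Lipoprotein receptors, with the substrates of Mylip among them, were tested for 6 of 8 genes, and 1 rose and 2 fell in either LPS contrast (medians -0.76 after IL-4 and -0.59 without). Scarb1, a receptor for high-density lipoprotein, fell by 0.68 after IL-4 (adjusted p = 0.0113). Vldlr, a Mylip substrate, was not tested, at no more than 0.276 CPM. Levels of receptor protein, on which Mylip acts, were not measured.

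Of 13 genes of SREBP processing and fatty acid synthesis, 11 were tested, and 1 rose and 1 fell for LPS after IL-4 (median -0.10). Fasn, the fatty acid synthase, fell by 1.05 (adjusted p = 0.00356), and Scap, the escort of SREBP, was at 0.44 (adjusted p = 0.0377), which came to -0.08 with scaling to the library total. Srebf2, the sterol-sensing relative of Srebf1, did not pass (0.47 ± 0.28, adjusted p = 0.223; -0.06 with the library total), and passed with the library number as a term (0.46, adjusted p = 0.0087). Of 7 tested lysophospholipid acyltransferases, relatives in function of Lpcat3, 0 rose and 2 fell, Lpcat1 by 1.21 and Lpgat1 by 0.82 on the log2 scale (adjusted p = 0.0191 and 0.00878). Of the 10 genes of cholesterol storage and lysosomal release, all tested, 2 rose and 5 fell after IL-4 (median -0.71), and 1 rose and 6 fell without it (median -0.72). Soat1, which esterifies cholesterol for storage, fell by 1.96 (adjusted p = 6.00e-05) and Nceh1, a hydrolase of those esters, by 1.80 (adjusted p = 0.00297), while Stard3, a carrier of cholesterol at endosomes, rose by 1.70 (adjusted p = 0.00238).

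Of 14 resident macrophage genes known to be expressed with Cd5l, 11 were tested, and 2 rose and 3 fell for LPS after IL-4 (median 0.14). The macrophage transcription factor gene Maf, named after its values were seen, had 113 and 124 CPM in control, 211 and 309 in LPS, 61.9 and 60.2 in IL-4, and 119 and 132 CPM in IL-4 then LPS. Against LPS alone Maf gave -1.05 ± 0.19 (adjusted p = 0.147; with the library number as a term, -1.03 and adjusted p = 0.0083), and it rose by 1.04 in the contrast with IL-4 alone (adjusted p = 0.00378). Cd5l gave -0.19 ± 0.17 (adjusted p = 0.411) in the contrast with IL-4 alone. Whether Maf acts on the palindrome of the Cd5l window was not tested. Marco, a scavenger receptor, rose by 4.70 from under 1 CPM (adjusted p = 0.0148), and the iron exporter gene Slc40a1 fell by 3.46 (adjusted p = 0.0302).

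In the contrasts for IL-4, no gene of these 8 lists passed, neither for IL-4 before LPS nor in IL-4 against control nor in the difference between the LPS responses. Over all tested genes, 0.049% rose and 0.0163% fell for IL-4 before LPS. The shares were 0.0572% and 0.00817% in IL-4 against control and 0% and 0% in the difference. An absence of calls is thus close to the share of all genes and is no result about the lists. With the library number as a term, 2 of the 72 tested genes of the lists rose and 4 fell for IL-4 before LPS. Over all tested genes that fit called 1.08% higher and 1.22% lower. Cd36, a scavenger receptor and fatty acid transporter, rose by 0.99 (adjusted p = 0.0036) and Lpl, the lipoprotein lipase, by 0.75 (adjusted p = 0.0473). Lpcat2, an acyltransferase that makes platelet-activating factor, fell by 0.80 (adjusted p = 0.0181) and Slc40a1 by 0.76 (adjusted p = 0.025), and all 4 genes were chosen after their values were seen. For LPS after IL-4 the same term gave 15 higher and 31 lower of the 72 (26.0% and 25.8% of all tested genes), and none passed in the difference between the LPS responses. In the lists, LPS after IL-4 then gave 2 higher and 6 lower for LXR partners and 2 and 5 for other LXR targets. It gave 1 and 2 for oxysterol enzymes, 1 and 4 for lipoprotein receptors, and 3 and 3 for SREBP processing. Acyltransferases had 1 and 2, cholesterol storage 3 and 6, and resident macrophage genes 2 and 4, with Fasn counted in both of its lists. The resident macrophage list had the lowest of the 8 medians for IL-4 before LPS, -0.48 against -0.03 over all tested genes. Of its 11 tested genes, 0 passed there without the library number as a term, and 3 fell with it. The lists were drawn up with results known, so this rank is only a description. The count for the LXR partners and co-regulators in the contrast with IL-4 alone went from 2 higher and 4 lower to 0 higher and 8 lower with scaling to the library total, for the other LXR targets from 1 and 3 to 0 and 5, and for cholesterol storage from 2 and 5 to 1 and 7.

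**Figure D5:**
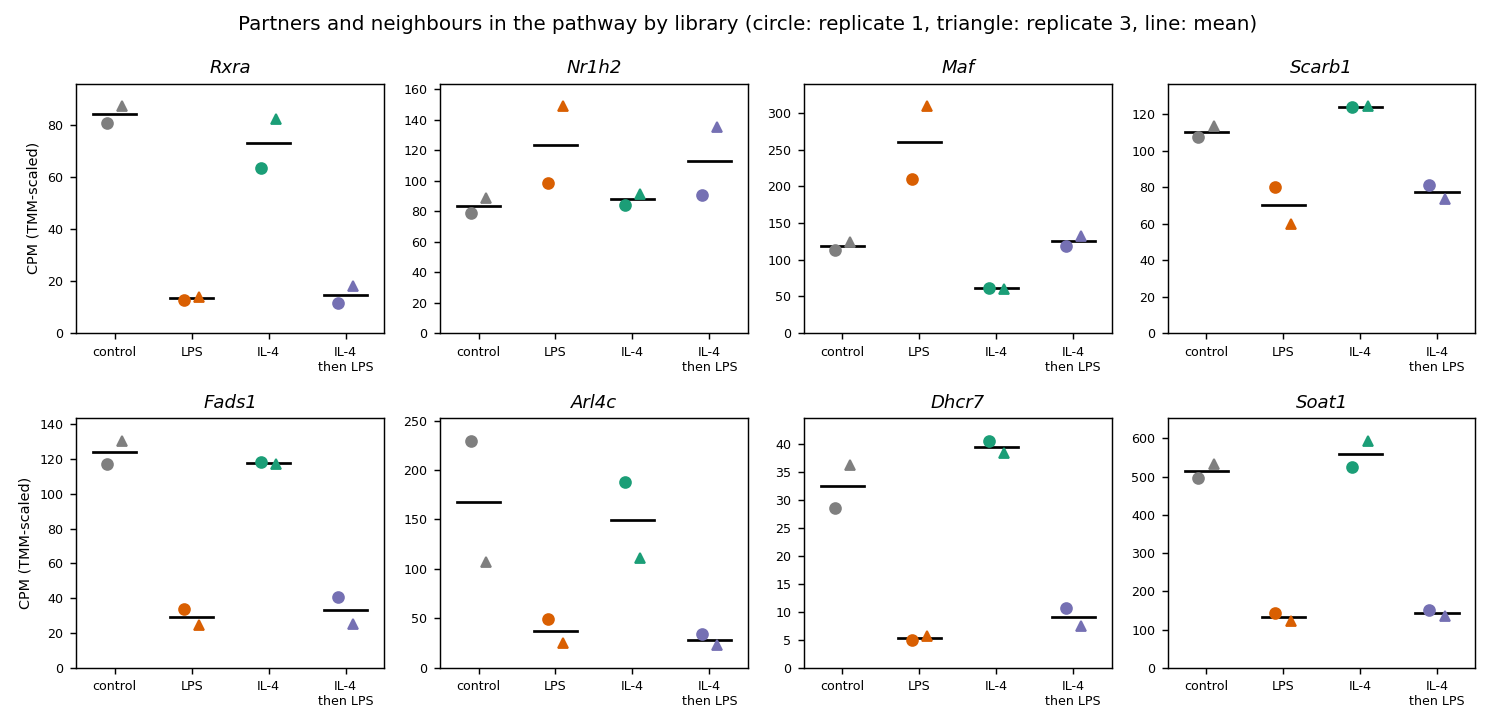
Level in CPM (linear axes from 0) of 8 genes of the pathway lists in every library; circles are libraries numbered 1, triangles libraries numbered 3, and lines the group means. Rxra, Scarb1, Fads1, Arl4c, Dhcr7 and Soat1 are lower in the 4 libraries with LPS than in the 4 without, with Rxra at 11.4 to 18.3 CPM against 63.6 to 87.3.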

How the data were processed

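RNA-seq counts were analysed for 8 libraries, 4 groups of 2. The authors deposited raw read counts per gene in 1 table, made with HISAT2, StringTie and HTSeq on mm10 per the submitters' processing notes; the sources used here give no versions, strand setting or read layout. The table also holds gene lengths, which per the file headers are in bases and gave the levels per kilobase, and 6 columns of per-sample values were not used. Genes were filtered with edgeR's filterByExpr, which left 12234 of 54532. Counts were scaled by TMM and fitted with edgeR 4.0.16 (R 4.3.3), glmQLFit and glmQLFTest, with 1 mean per group and all 8 libraries in 1 fit. A call is a Benjamini-Hochberg adjusted p under 0.05 over all tested genes, and SEs were derived from the fold change and its F statistic. Group comparisons took groups from the labels. The fitting script was tested on simulated data. Alternatives were 3 other scalings, no filter, the replicate number as a block (called the library number as a term), fits of 2 groups, DESeq2 1.42.0 and leaving out each library. The members and lists were chosen with earlier results of these data known. All members are named in every comparison; from each pathway list the 3 called genes with the largest change are named, and direct partners of members whatever their value, except some genes not reported here. Promoters came from RefSeq (GRCm38.p6), and shared exons and transcripts from GENCODE for the same build.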

Additional observations from a re-analysis of the deposited data

How the results depend on the processing

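Precision was limited by 2 libraries per group and, for the lowest member count, 92 reads. The number of members called in LPS against control was 3 and came to 7 with scaling to the library total and 5 with the replicate block, with 2 to 3 over the fits that left out 1 library. In IL-4 against control it was 1 and came to 6 without the filter on low counts, 3 with the replicate block and 2 with DESeq2, with 0 to 1 leaving out 1 library. For IL-4 before LPS (IL-4 then LPS compared with LPS) it was 1 and came to 5 without the filter, 3 with the replicate block and 0 when 2 groups were fitted alone, with 0 to 1 leaving out 1 library. For LPS after IL-4 (IL-4 then LPS compared with IL-4) it was 4 and came to 7, all lower, with scaling to the library total, with 1 to 4 leaving out 1 library. The difference between the LPS responses had 0 throughout. All-gene counts moved as well. In LPS against control 2663 of 12234 genes were called higher and 2279 lower with TMM. Scaling to the library total gave 1547 and 5745, and the replicate block 3453 and 3121. For LPS after IL-4, the library total gave 1546 and 5321, against 2537 and 2271 with TMM. In IL-4 against control 7 rose and 1 fell. No filter gave 198 and 162 of 21068 there, the block 183 and 105, and DESeq2 58 and 43 of 11710. The causes were not tested.

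With the replicate number as a block, Apoe at -0.92 (adjusted p = 0.0078) and Scd1 at 1.26 (adjusted p = 0.0049) also passed for IL-4 before LPS, where 132 genes rose and 149 fell against 6 and 2 without it. Deviations of libraries with the same number correlated at 0.343 to 0.524 over 12234 genes, but with only 2 numbers, which also go with the sex of the cells, the labels do not establish a pairing. In that contrast DESeq2 called 60 genes higher and 56 lower, and no filter gave 172 and 225.

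Signs turned for values that did not pass the test with TMM scaling: in LPS against control with scaling to the library total for Cd5l (-0.53), Apoe (-0.18) and Scd1 (-0.38) and with upper-quartile scaling for Cd5l (-0.19) and Scd1 (-0.043); for LPS after IL-4 for Apoe with the library total (-0.25) and for Scd1 with RLE scaling (0.017) and DESeq2 (0.013); and in the difference between the LPS responses with the library total for Nr1h3 (0.059) and Lpcat3 (0.041). Leaving out 1 library also turned signs: in LPS against control Cd5l ran from -0.15 to 0.26 and Scd1 from -0.10 to 0.49; in IL-4 against control Srebf1 from -0.017 to 0.069; for IL-4 before LPS Srebf1 from -0.18 to 0.042 and Scd2 from -0.039 to 1.29; for LPS after IL-4 Apoe from -0.25 to 0.67 and Scd1 from -0.50 to 0.42; in the difference between the LPS responses Apoe from -0.67 to 0.29, Abca1 from -0.35 to 0.15, Nr1h3 from -0.20 to 0.24, Scd1 from -0.72 to 0.25, Scd2 from -0.76 to 0.57 and Lpcat3 from -0.15 to 0.16.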
